A study of Mus musculus with 16 samples.

Results

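The 50 genes described here are interferon-stimulated effector genes, taken by symbol from a list of antiviral genes and of the interferon receptor chains that switch them on. All 50 were found among the 24421 gene symbols of each count table. They fall into 7 sensors of foreign RNA and DNA, 6 oligoadenylate synthetase family genes, 3 IFIT genes, 7 genes of the ISG15 and PARP9 pathways, 14 other antiviral effectors, 6 guanylate-binding and immunity-related GTPases, 3 Schlafen genes and 4 receptor chains. The genes were measured in myeloid-derived suppressor cells (MDSCs), immature myeloid cells that expand in tumor hosts and restrain T cells. Monocytic (M-MDSC, Ly6C+) and granulocytic (G-MDSC, Ly6G+) subsets were sorted from the spleens of C57BL/6 mice that carried a subcutaneous B16.F10 melanoma, a tumor line of the same strain that was NLRP3-sufficient in both genotypes. The 4 groups were M-MDSCs and G-MDSCs of 4 wild type (WT) mice and M-MDSCs and G-MDSCs of 4 Nlrp3-/- mice, in which an EGFP cassette disrupts Nlrp3 in every cell of the host. NLRP3 is the sensor of an inflammasome that matures IL-1β and IL-18. Each RNA sample came from 1 mouse and both subsets of each of the 8 mice were sequenced. In such bulk samples fewer cells of a type and less RNA per cell cannot be told apart.

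Type I interferons bind the IFNAR1 and IFNAR2 chains and interferon gamma binds IFNGR1 and IFNGR2. Both receptors act through JAK kinases and the transcription factors these activate, which bind the ISRE element (type I) or the GAS element (gamma) near the start of their target genes. The products detect foreign nucleic acid, block translation, degrade RNA or tag proteins with ISG15. Neutrophils and monocytes, the cells that MDSCs resemble, hold many of these transcripts without infection.

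Promoters of the members, from 250 bases before to 50 after each transcription start, were read from RefSeq (GRCm38.p6) to show what the genes share in sequence. An ISRE-like motif, GAAANNGAAA on either strand, was in 20 of the 48 promoters found for 40 members, which is 41.7%, and in 3.44% of 32851 promoters of all genes. A GAS-like motif, TTCNNNGAA, was in 13 of the 48, or 27.1%, against 8.30% of all promoters. Promoters of Ifit3, Rsad2, Trim30a and Xaf1 are shown as examples of members called between genotypes or subsets. ISRE-like letters are in capitals, 5′ to 3′ on the strand of the gene. Ifit3 (chr19:34583279-34583578, plus strand) rose in both subsets of Nlrp3-/- mice, Rsad2 (chr12:26456403-26456702, minus strand) had the largest excess in G-MDSCs, and Trim30a (chr7:104465144-104465443, minus strand) and Xaf1 (chr11:72301379-72301678, plus strand) fell in both subsets of Nlrp3-/- mice.
Ifit3: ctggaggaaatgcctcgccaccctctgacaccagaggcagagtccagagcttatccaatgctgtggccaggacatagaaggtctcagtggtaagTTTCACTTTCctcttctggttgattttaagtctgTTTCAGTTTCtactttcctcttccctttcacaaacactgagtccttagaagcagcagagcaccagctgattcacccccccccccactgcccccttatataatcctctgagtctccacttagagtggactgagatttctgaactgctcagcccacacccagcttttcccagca
Rsad2: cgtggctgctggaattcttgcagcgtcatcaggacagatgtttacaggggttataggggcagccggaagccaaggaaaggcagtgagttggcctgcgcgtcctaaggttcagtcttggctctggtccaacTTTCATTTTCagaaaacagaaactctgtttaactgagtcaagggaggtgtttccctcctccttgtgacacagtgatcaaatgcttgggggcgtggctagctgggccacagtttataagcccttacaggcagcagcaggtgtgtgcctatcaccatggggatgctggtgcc
Trim30a: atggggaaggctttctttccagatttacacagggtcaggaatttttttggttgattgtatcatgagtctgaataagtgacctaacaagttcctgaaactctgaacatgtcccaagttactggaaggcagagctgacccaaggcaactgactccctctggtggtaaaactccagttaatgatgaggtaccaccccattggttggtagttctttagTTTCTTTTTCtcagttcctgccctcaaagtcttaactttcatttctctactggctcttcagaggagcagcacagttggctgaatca
Xaf1: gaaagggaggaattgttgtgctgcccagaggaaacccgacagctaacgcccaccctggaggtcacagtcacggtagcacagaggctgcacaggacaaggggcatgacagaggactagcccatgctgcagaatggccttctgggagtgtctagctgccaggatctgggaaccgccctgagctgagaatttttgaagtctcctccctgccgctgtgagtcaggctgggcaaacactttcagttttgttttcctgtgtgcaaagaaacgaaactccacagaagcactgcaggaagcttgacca
The Ifit3 promoter held 2 such matches, starting 156 and 122 bases before the transcription start, those of Rsad2 and Trim30a 1 each, at 120 and 36 bases before it, and the Xaf1 window none. Another Trim30a promoter, not shown, held 1 match, starting 2 bases after its transcription start. The Sp100 promoters, also not shown, held none. Among the 17 members with a promoter that were higher in G-MDSCs of WT mice, 10 had an ISRE-like match, and among the 8 that were lower, 4 did. These matches are letters in a window and no test was made of them.

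Total counts per library were 2295967 to 6079866 (median 4839508.5), and levels are given as CPM, the counts scaled to a common library size after TMM scaling over the 16 libraries. Nlrp3 (chr11:59541568-59566956) ranged from 40.7 to 88.9 CPM in M-MDSCs of WT mice and from 0.514 to 1.88 CPM in those of Nlrp3-/- mice. In G-MDSCs it ranged from 251.8 to 330.7 CPM in WT mice and from 5.51 to 13.6 CPM in Nlrp3-/- mice, so every Nlrp3-/- library was below every WT library of its subset. The subsets differed in their defining markers. The 10 monocyte markers summed to 6790 to 10810 CPM in M-MDSCs and 830.5 to 1616 CPM in G-MDSCs, and 11 neutrophil markers (Ly6g itself was not analysed here) to 1639 to 8867 CPM and 116100 to 177000 CPM. M-MDSC WT replicate 2 held the 8867 CPM. The other WT M-MDSC libraries held 1639 to 2044 CPM and the Nlrp3-/- ones 2402 to 2865 CPM. Of 10 neutrophil markers tested between genotypes in M-MDSCs, 2 were called higher (20.0%, against 3.51% of all genes) and 0 lower. In G-MDSCs 0 of 11 were called higher and 1 lower (9.09%, against 11.7% of all genes). The summed level of 10 red pulp macrophage markers was higher in every Nlrp3-/- library than in every WT library of its subset, with sums of 102.9 to 114.3 CPM against 228.9 to 361.8 CPM in M-MDSCs and of 433.9 to 773.6 CPM against 986.3 to 1223 CPM in G-MDSCs. Mertk was at 0 in all 4 WT M-MDSC libraries. In each subset 7 of 9 markers tested were called higher (77.8%, against 3.51% of all genes in M-MDSCs and 4.70% in G-MDSCs). Monocyte markers in G-MDSCs summed to 830.5 to 1268 CPM in WT and 1305 to 1616 CPM in Nlrp3-/- mice. The 11 T and NK cell markers summed to 110.7 to 152.4 CPM in WT and 163.4 to 291.6 CPM in Nlrp3-/- M-MDSCs. In G-MDSCs they summed to 138.1 to 202.3 CPM and 208.4 to 278.5 CPM, again without overlap. Of these markers 1 of 10 tested was called higher in M-MDSCs (10.0%) and 2 of 9 in G-MDSCs (22.2%). Sums of B cell, plasmacytoid and conventional dendritic cell, non-classical monocyte, erythroid and melanocyte markers overlapped between genotypes in both subsets. The part of cells that carry any of these markers in the genotype results below was not tested.

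The first question was how the interferon-stimulated genes differed between Nlrp3-/- and WT mice within each subset. Per the study, the WT mice were purchased, the Nlrp3-/- line came from another laboratory, and tumors grew less in Nlrp3-/- mice. Origin of the mice and tumor growth cannot be told apart from loss of NLRP3 in these comparisons. In Nlrp3-/- M-MDSCs Ifit3 rose and Ifih1, Eif2ak2, Xaf1, Trim30a and Sp100 fell. In Nlrp3-/- G-MDSCs Ifit3 and Tmem173 rose and Eif2ak2, Ifit2, Parp9, Parp14, Xaf1, Trim30a, Sp100 and Gbp7 fell. Ifit3 was called higher and Eif2ak2, Xaf1, Trim30a and Sp100 lower in both subsets of the same mice. A call is an edgeR quasi-likelihood test with a Benjamini-Hochberg adjusted p (FDR) under 0.05 over all genes tested and a fold change above 1.5. Errors of log2 fold changes are approximate standard errors (SE), the absolute log2 fold change divided by the square root of the test's F statistic. They are derived from the test and are no separate estimate of error. In M-MDSCs 1 of 50 members tested (2.00%) was called higher, against 3.51% of all 9986 genes tested, and 5 (10.0%) lower, against 7.10%. In G-MDSCs 45 of the members passed the filter on low counts, and 2 (4.44%) were called higher, against 4.70% of 9273 genes, and 8 (17.8%) lower, against 11.7%. The shares called higher were near those of all genes. The median log2 fold change was 0.19 over members tested and 0.07 over all genes in M-MDSCs, and 0.07 and 0.03 in G-MDSCs. The 11 members called in either subset are plotted by mouse, and all 50 by role.

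**Figure D1:**
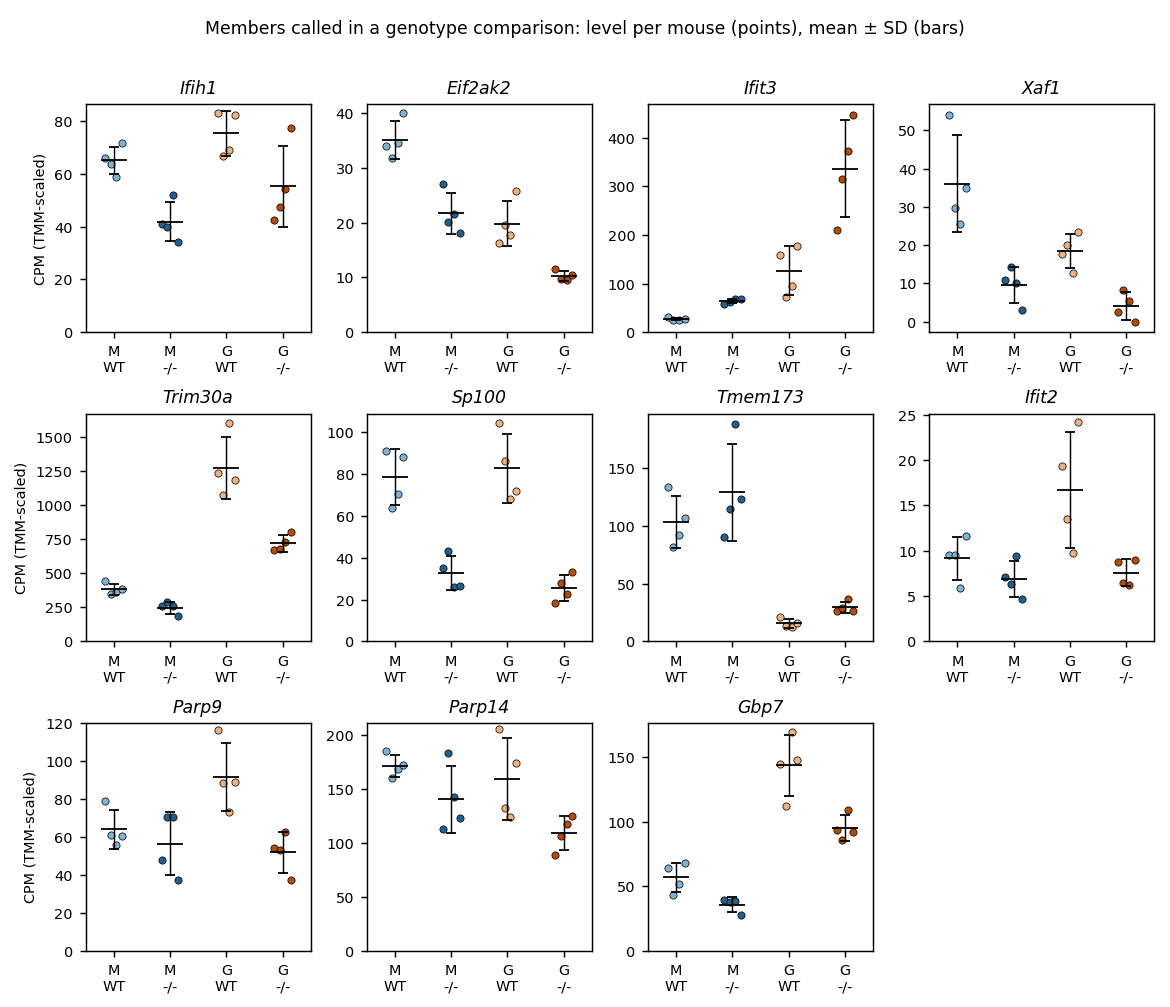
Levels (y axes, CPM after TMM scaling) of the 11 members called in a genotype comparison. M and G are M-MDSCs and G-MDSCs, WT and -/- the genotype, points are mice (n = 4 per group) and bars the mean ± SD. The WT and Nlrp3-/- points of Ifit3, Eif2ak2, Xaf1, Trim30a and Sp100 do not overlap in either subset.

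**Figure D2:**
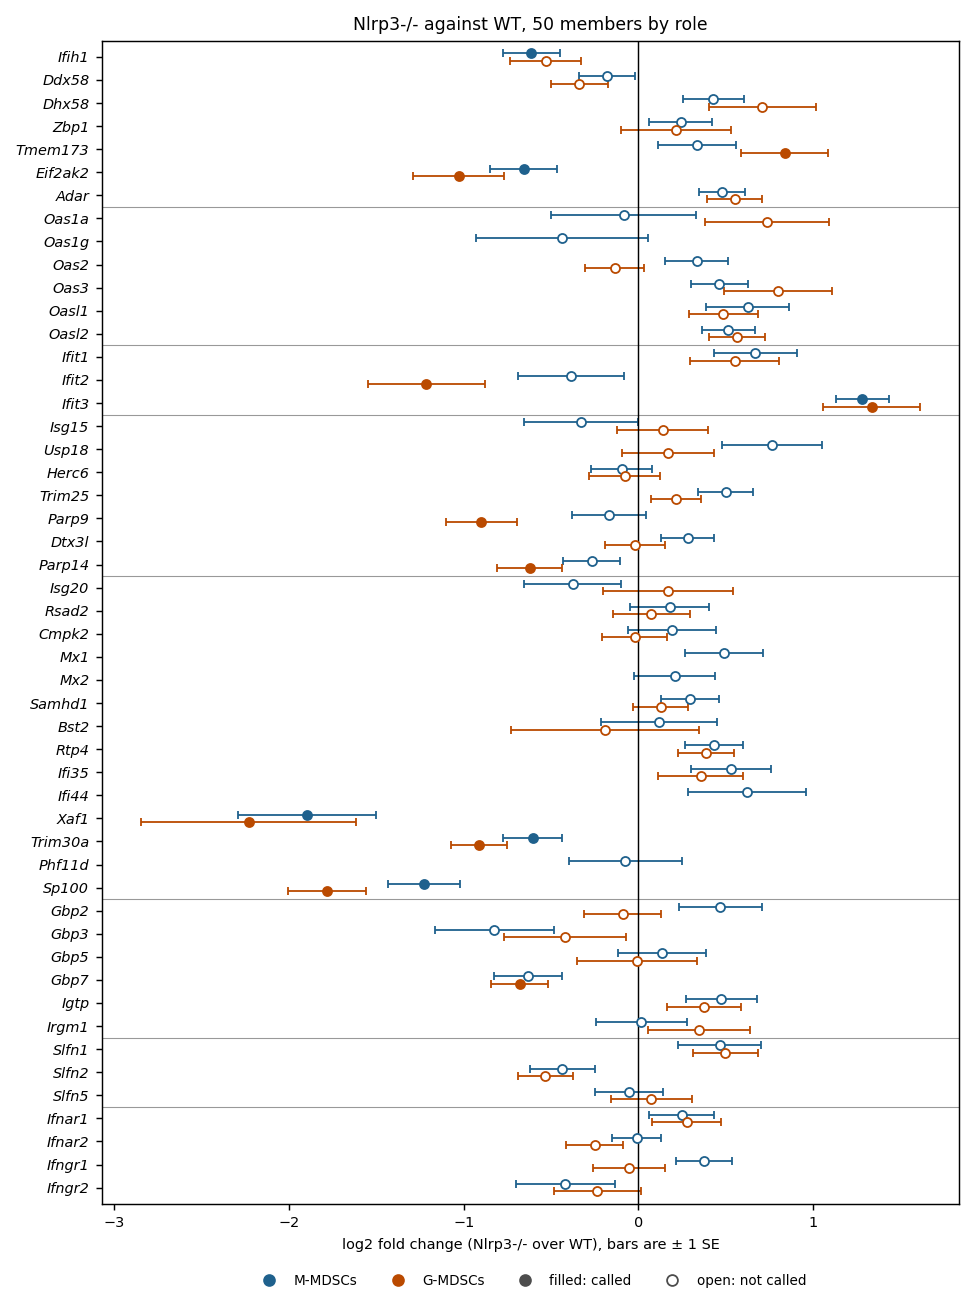
Log2 fold change of Nlrp3-/- over WT (x axis) for the 50 members (rows, separated by role), in M-MDSCs (blue) and G-MDSCs (orange), with bars of ± 1 SE and filled points for called members. Ifit3 is the filled pair on the right, at 1.28 and 1.34, and Xaf1 and Sp100 lie farthest to the left in both subsets.

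Of the 7 sensors, Eif2ak2 fell in both subsets, Ifih1 fell in M-MDSCs, Tmem173 rose in G-MDSCs, and the other 4 were not called. Eif2ak2 encodes PKR, the kinase that halts translation on double-stranded RNA. Its level was 34.0, 31.8, 34.6 and 40.1 CPM in the WT M-MDSC libraries and 26.99, 20.1, 21.5 and 18.1 CPM in the Nlrp3-/- ones. In G-MDSCs it was 16.4, 19.6, 17.7 and 25.7 CPM against 11.6, 9.63, 9.53 and 10.49 CPM. The groups did not overlap in either subset, and the log2 fold change was -0.66 ± 0.19 (SE, edgeR adjusted p = 0.0462) in the monocytic and -1.03 ± 0.26 (adjusted p = 0.0153) in the granulocytic subset. The Eif2ak2 call was fragile, with 4 of 15 alternatives keeping it in M-MDSCs and 12 of 15 in G-MDSCs, and offsets for GC content and length ended it in both (adjusted p = 0.156 and 0.0808). The 15 counted for each genotype call include an edgeR block on replicate number, which joins different mice between genotypes. That block also ended the Eif2ak2 call in both subsets (adjusted p = 0.113 and 0.056).

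Ifih1 encodes MDA5, a sensor of long double-stranded RNA. WT M-MDSC libraries held 66.2, 64.0, 58.9 and 71.6 CPM and Nlrp3-/- ones 41.2, 39.9, 52.2 and 34.3 CPM, with no overlap and a log2 fold change of -0.61 ± 0.16 (edgeR adjusted p = 0.0346) that kept its call in 6 of 15 alternatives. In G-MDSCs the levels were 83.1, 67.0, 69.1 and 82.5 CPM against 42.7, 47.4, 54.3 and 77.4 CPM, the groups overlapped and the change of -0.53 ± 0.20 did not pass (adjusted p = 0.0820). Tmem173 encodes STING, the adaptor that receives the signal of the DNA sensor cGAS. It was at 21.4, 13.2, 12.1 and 15.6 CPM in WT and 25.9, 28.6, 36.7 and 26.2 CPM in Nlrp3-/- G-MDSCs, all 4 of the latter above the former, with a log2 fold change of 0.84 ± 0.25 (adjusted p = 0.0316). In M-MDSCs its levels of 133.6, 81.4, 91.7 and 106.6 CPM in WT and 90.3, 114.3, 188.0 and 122.7 CPM in Nlrp3-/- mice overlapped (0.34 ± 0.22, adjusted p = 0.334). The Tmem173 call was lost in 7 of 15 alternatives, among them leaving out G-MDSC WT replicate 2, 3 or 4 or Nlrp3-/- replicate 2 or 3, with adjusted p of 0.0649 to 0.0963, and GC content and length offsets (0.114).

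Ddx58 (RIG-I, the sensor of RNA with 5′ triphosphate) was at 87.3, 76.8, 72.1 and 74.0 CPM in WT and 57.7, 71.1, 84.4 and 57.3 CPM in Nlrp3-/- M-MDSCs. Its G-MDSC levels were 198.3, 158.0, 163.3 and 174.7 CPM against 110.2, 165.2, 161.4 and 145.6 CPM. Neither difference passed the test, and the groups overlapped in both subsets. Adar, which edits double-stranded RNA, passed on adjusted p but not on fold, at 0.48 ± 0.13 on the log2 scale in M-MDSCs (edgeR adjusted p = 0.0390) and 0.55 ± 0.16 in G-MDSCs (0.0276), and all 4 Nlrp3-/- libraries lay above all 4 WT libraries in each subset. Dhx58 and Zbp1 had log2 fold changes of 0.22 to 0.71 with adjusted p of at least 0.119.

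No oligoadenylate synthetase family gene was called in either subset. These enzymes make short oligoadenylates in response to double-stranded RNA, an activity that Oasl1 lacks. Oasl2 was at 94.6, 90.7, 76.5 and 75.4 CPM in WT and 110.0, 104.4, 124.7 and 134.8 CPM in Nlrp3-/- M-MDSCs. In G-MDSCs it was at 422.3, 361.8, 507.4 and 452.6 CPM against 562.3, 665.6, 753.8 and 752.5 CPM. The groups were separate in both subsets, and the log2 fold changes of 0.51 ± 0.15 (edgeR adjusted p = 0.0483) and 0.56 ± 0.16 (0.0262) passed on adjusted p alone, below the fold minimum. Oas3, Oasl1 and Oas1a also had all 4 Nlrp3-/- G-MDSC libraries above the 4 WT ones, with adjusted p of 0.0876, 0.102 and 0.169. Oas1a shares 56.3% of its 75-base windows at the 3′ end with Oas1g, so counts of the pair may be split between them.

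The 3 IFIT genes, from a family of proteins that bind foreign RNA, did not move together. In humans IFIT3 stabilizes IFIT1 in a complex. WT M-MDSC libraries held 30.3, 25.3, 24.1 and 27.4 CPM of Ifit3 and Nlrp3-/- ones 58.5, 61.3, 67.3 and 68.9 CPM. WT G-MDSC libraries held 159.3, 72.4, 94.5 and 177.5 CPM and Nlrp3-/- ones 210.0, 315.3, 372.3 and 448.0 CPM. Every Nlrp3-/- library was above every WT library, with log2 fold changes of 1.28 ± 0.15 (edgeR adjusted p = 0.00137) in the monocytic and 1.34 ± 0.28 (0.00494) in the granulocytic subset. The call held in all 15 alternatives of each subset. Ifit3b, a close copy that shares 9.30% of the windows of Ifit3 and is no member, also rose in both, by 1.45 ± 0.33 (0.0178) and 0.87 ± 0.23 (0.0174).

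Ifit2 went the other way in G-MDSCs. Its levels were 19.4, 13.5, 9.69 and 24.1 CPM in WT and 8.78, 6.42, 6.22 and 8.92 CPM in Nlrp3-/- G-MDSCs, with no overlap and a log2 fold change of -1.21 ± 0.34 (edgeR adjusted p = 0.0235). In M-MDSCs they were 9.48, 9.56, 5.89 and 11.7 CPM against 7.10, 6.31, 9.40 and 4.63 CPM and overlapped (-0.39 ± 0.30, adjusted p = 0.416). The Ifit2 call was lost in 5 of 15 alternatives, namely leaving out G-MDSC WT replicate 1 or 4 or Nlrp3-/- replicate 2 or 3 (adjusted p of 0.0506 to 0.0888) and GC content and length offsets (0.0956). Ifit1 had log2 fold changes of 0.67 ± 0.24 and 0.55 ± 0.26 that did not pass (0.0854 and 0.152).

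In the ISG15 and PARP9 group no member was called in M-MDSCs, and Parp9 and Parp14 fell in G-MDSCs. PARP9 binds ADP-ribose and works with the ubiquitin ligase DTX3L, and PARP14 is an ADP-ribosyltransferase, all encoded near each other on chromosome 16. Parp9 was at 116.2, 88.3, 72.9 and 88.7 CPM in WT and 54.3, 53.1, 62.8 and 37.2 CPM in Nlrp3-/- G-MDSCs, separate groups with a log2 fold change of -0.90 ± 0.20 (edgeR adjusted p = 0.00794). Parp14 was at 205.3, 132.3, 123.6 and 174.0 CPM against 88.7, 106.4, 117.3 and 124.6 CPM, groups that overlapped, with -0.62 ± 0.19 (0.0324). The Parp14 call was lost in 10 of 15 alternatives, and its change shrank to -0.25 with GC content and length offsets (adjusted p = 0.428). In M-MDSCs Parp9 was at 79.2, 60.9, 55.8 and 60.7 CPM in WT and 47.8, 70.5, 70.4 and 37.4 CPM in Nlrp3-/- mice, and Parp14 at 184.7, 160.2, 168.2 and 172.0 CPM against 112.6, 183.4, 142.2 and 122.9 CPM, so the groups overlapped for both. Dtx3l was not called in either subset (0.28 ± 0.15 and -0.02 ± 0.17).

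Trim25, the ubiquitin ligase that activates RIG-I, was at 234.7, 172.8, 172.5 and 184.7 CPM in WT and 228.1, 248.9, 312.0 and 274.8 CPM in Nlrp3-/- M-MDSCs. In G-MDSCs it was at 194.6, 227.4, 231.2 and 184.9 CPM against 266.8, 242.9, 272.0 and 252.3 CPM. The groups were separate in G-MDSCs and overlapped in M-MDSCs, and neither change passed (edgeR adjusted p = 0.323 and 0.0607). Isg15 itself, the ubiquitin-like modifier, varied widely among WT mice, from 24.3 to 65.1 CPM in M-MDSCs and from 97.1 to 258.8 CPM in G-MDSCs, and its changes of -0.33 ± 0.33 and 0.14 ± 0.26 did not pass. Usp18, which removes ISG15, and the ISG15 ligase Herc6 were not called either.

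Among the 14 other effectors, Xaf1, Trim30a and Sp100 fell in both subsets. XAF1 promotes cell death by opposing XIAP. Xaf1 was at 54.1, 29.7, 25.5 and 35.0 CPM in WT and 10.8, 14.3, 10.0 and 2.96 CPM in Nlrp3-/- M-MDSCs. In G-MDSCs it was at 17.7, 20.0, 12.8 and 23.4 CPM against 2.54, 8.39, 5.39 and 0 CPM. No WT and Nlrp3-/- values overlapped, and the log2 fold changes were -1.90 ± 0.40 (edgeR adjusted p = 0.0125) and -2.23 ± 0.62 (0.0232). The 0 in G-MDSC Nlrp3-/- replicate 4 allows a level of up to about 3 counts. The G-MDSC call was lost in 4 of 15 alternatives, among them DESeq2 (adjusted p = 0.0603) and the fits without G-MDSC WT replicate 4 or Nlrp3-/- replicate 1 (0.0620 and 0.0542), while the M-MDSC call held in all 15 alternatives. Xaf1 lies on chromosome 11, as Nlrp3 does, at a distance of 12.73 Mb. The other 8 members on that chromosome, from Igtp at 1.33 Mb to Ifi35 at 41.88 Mb, were not called in either subset. Of all genes tested, 3.51% were called higher and 7.10% lower in M-MDSCs, and 4.70% and 11.7% in G-MDSCs. The part of position in the Xaf1 change was not tested.

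Sp100 encodes a protein of PML nuclear bodies, which hold many antiviral factors. It was at 91.0, 63.6, 70.5 and 88.1 CPM in WT and 35.3, 43.0, 26.1 and 26.5 CPM in Nlrp3-/- M-MDSCs. In G-MDSCs it was at 104.5, 86.0, 68.1 and 72.0 CPM against 18.5, 27.9, 22.6 and 33.1 CPM. The lowest WT library was above the highest Nlrp3-/- library in both subsets, with log2 fold changes of -1.23 ± 0.21 (edgeR adjusted p = 0.00482) and -1.78 ± 0.22 (0.000136), and both calls held in all 15 alternatives. Sp100 (chr1:85649988-85709998) shares 4.50% of its windows with other loci, among them several predicted genes.

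Trim30a encodes a ligase of the TRIM family that restrains Toll-like receptor signaling. WT M-MDSC libraries held 440.2, 348.3, 360.0 and 381.0 CPM and Nlrp3-/- ones 259.2, 285.1, 257.9 and 184.5 CPM. WT G-MDSC libraries held 1236, 1076, 1599 and 1181 CPM and Nlrp3-/- ones 668.6, 674.9, 727.9 and 803.9 CPM. All Nlrp3-/- values were below all WT values, and the log2 fold changes were -0.61 ± 0.17 (edgeR adjusted p = 0.0398) and -0.91 ± 0.16 (0.00170). The M-MDSC call was lost in 9 of 15 alternatives and the G-MDSC call in 0 of 15. Trim30a shares 16.5% of its windows with Trim30d.

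The remaining effectors were not called, among them Samhd1, which degrades the nucleotides that viruses need. Samhd1 was at 1145, 720.5, 897.5 and 950.5 CPM in WT and 1184, 1049, 1143 and 1092 CPM in Nlrp3-/- M-MDSCs. Its G-MDSC levels were 1077, 737.8, 1036 and 1064 CPM against 1141, 1068, 1072 and 1259 CPM. Neither change passed (0.30 ± 0.17 and 0.13 ± 0.16). Mx1, Mx2, Ifi44 and Phf11d, together with Oas1g, were too low in G-MDSCs to pass the filter there, and in M-MDSCs their log2 fold changes were -0.44 to 0.62 with adjusted p of at least 0.167. Rsad2 and Cmpk2, which neighbor each other on chromosome 12, were not called, with log2 fold changes of 0.18 and 0.07 (Rsad2) and 0.19 and -0.02 (Cmpk2).

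Among the GTPases that attack vacuoles of intracellular microbes, Gbp7 fell in G-MDSCs. Its levels were 144.9, 112.0, 169.4 and 147.9 CPM in WT and 93.8, 85.4, 108.8 and 92.3 CPM in Nlrp3-/- G-MDSCs, without overlap, with a log2 fold change of -0.68 ± 0.16 (edgeR adjusted p = 0.0111). In M-MDSCs they were 64.3, 43.3, 51.4 and 67.9 CPM against 39.6, 37.5, 38.6 and 27.4 CPM, also without overlap, and -0.63 ± 0.19 missed the threshold (0.0556). The call was lost in 3 of 15 alternatives, with GC content and length offsets (-0.25, adjusted p = 0.371) and, by its fold, with library size only (-0.56, 0.0403) and without G-MDSC WT replicate 3 (-0.57, 0.0375). The other 5 GTPases ranged from -0.82 to 0.47 in M-MDSCs and from -0.42 to 0.37 in G-MDSCs and were not called.

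The Schlafen genes, which limit the growth and activation of leukocytes, were not called. Slfn1 was at 296.0, 130.2, 174.3 and 204.2 CPM in WT and 239.4, 250.4, 361.3 and 242.3 CPM in M-MDSCs of Nlrp3-/- mice, and at 1570, 847.8, 1138 and 1382 CPM against 1587, 1850, 1965 and 1973 CPM in G-MDSCs. Only the G-MDSC groups were separate, and 0.50 ± 0.19 missed the threshold there (edgeR adjusted p = 0.0790). Slfn2 had the opposite sign, with all 4 Nlrp3-/- G-MDSC libraries below the WT ones and -0.53 ± 0.16 (0.0304), under the fold minimum. No receptor chain was called. Ifngr1, the ligand-binding chain of the interferon gamma receptor, was at 624.3, 483.6, 469.4 and 526.3 CPM in WT and 557.2, 718.9, 809.9 and 602.1 CPM in M-MDSCs of Nlrp3-/- mice, and at 329.9, 503.9, 317.7 and 238.2 CPM against 325.0, 325.9, 407.3 and 368.0 CPM in G-MDSCs, with overlap in both.

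Counting members in which all 4 Nlrp3-/- libraries lay on one side of all 4 WT libraries gave 3 higher (6.00%) and 6 lower (12.0%) in M-MDSCs, against 7.59% and 11.7% of all genes tested. In G-MDSCs it gave 10 higher (22.2%) and 8 lower (17.8%), against 12.0% and 12.3%. No difference of the genotype effect between the subsets was detected for any member. The edgeR test of that difference, without a block on the mouse, called 0 of 50 members, against 0.028% of 10696 genes. In it 0 members had an unadjusted p under 0.05, and the lowest adjusted p was 0.992. DESeq2 also called 0, with Parp9 and Mx2 at an unadjusted p under 0.05. With the mouse as a block, which fits 2 sorts from 1 animal, edgeR called 0. It put 6 members under an unadjusted p of 0.05, namely Tmem173, Oas1a, Isg15, Parp9, Isg20 and Mx2. A member called in 1 subset only is therefore not shown to respond differently in the other.

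The second question was how the subsets differ in the same mice. G-MDSCs held much more of Rsad2, Oasl1, Oasl2, Ifit1, Ifit3, Rtp4, Isg20 and Slfn1 than M-MDSCs, and much less of Mx1, Mx2, Phf11d, Tmem173, Bst2 and Gbp3. In WT mice 19 of 50 members (38.0%) were called higher in G-MDSCs, against 26.3% of 9739 genes tested, and 13 (26.0%) lower, against 27.1%. In Nlrp3-/- mice, which are other animals, 18 (36.0%) were called higher, against 23.7% of 10071 genes, and 10 (20.0%) lower, against 27.4%. Of these, 18 were called higher and 9 lower in both genotypes. The median log2 fold change was 0.19 over members and -0.05 over all genes in WT mice, and 0.04 and -0.12 in Nlrp3-/- mice. Of the calls, 24 of 32 in WT and 20 of 28 in Nlrp3-/- mice held in all 16 alternatives. In WT mice Oas1a, Ifit2 and Ifngr1 lost theirs in 7 of 16 alternatives each and Ifi44 in 9, while Ddx58, Zbp1, Xaf1 and Igtp lost theirs in 1. In Nlrp3-/- mice Ifi35 lost its call in 2 alternatives, and Ddx58, Oas2, Cmpk2, Gbp2, Gbp7, Igtp and Slfn2 lost theirs in 1. With the mouse as a block, which fits 2 sorts from 1 animal, Usp18 was also called higher (adjusted p = 0.0102) and Ifi44 no longer called (0.0539) in WT mice, and Dhx58 (0.00828), Zbp1 (0.00280) and Xaf1 (0.0115) were also called lower and Ifngr2 (0.00801) higher in Nlrp3-/- mice.

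**Figure D3:**
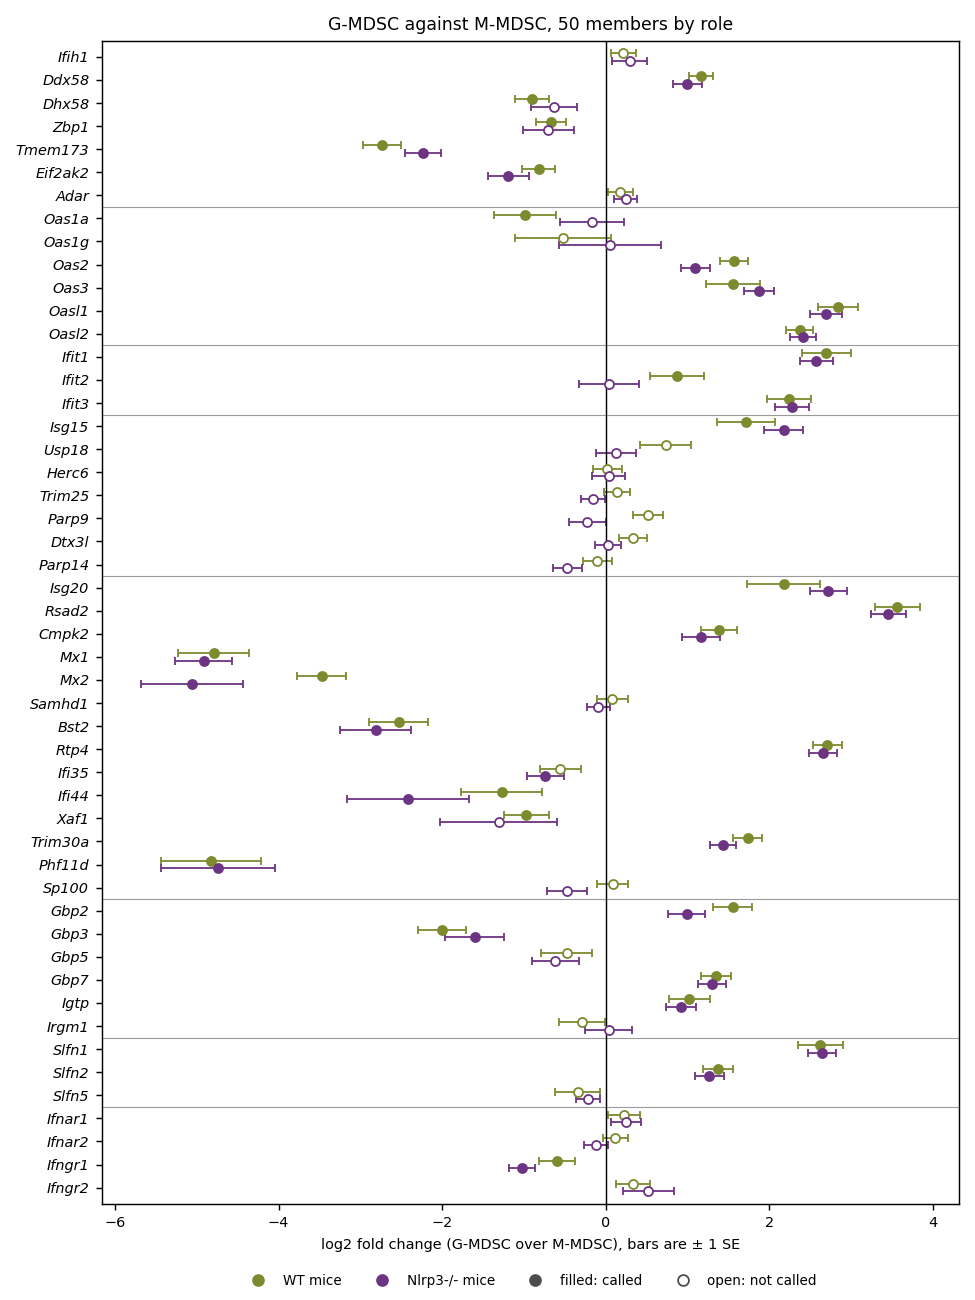
Log2 fold change of G-MDSC over M-MDSC (x axis) for the 50 members (rows, separated by role), in WT mice (green) and Nlrp3-/- mice (purple), with bars of ± 1 SE and filled points for called members. Rsad2 lies farthest to the right, at 3.57 in WT mice, and Mx1, Mx2 and Phf11d farthest to the left.

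**Figure D4:**
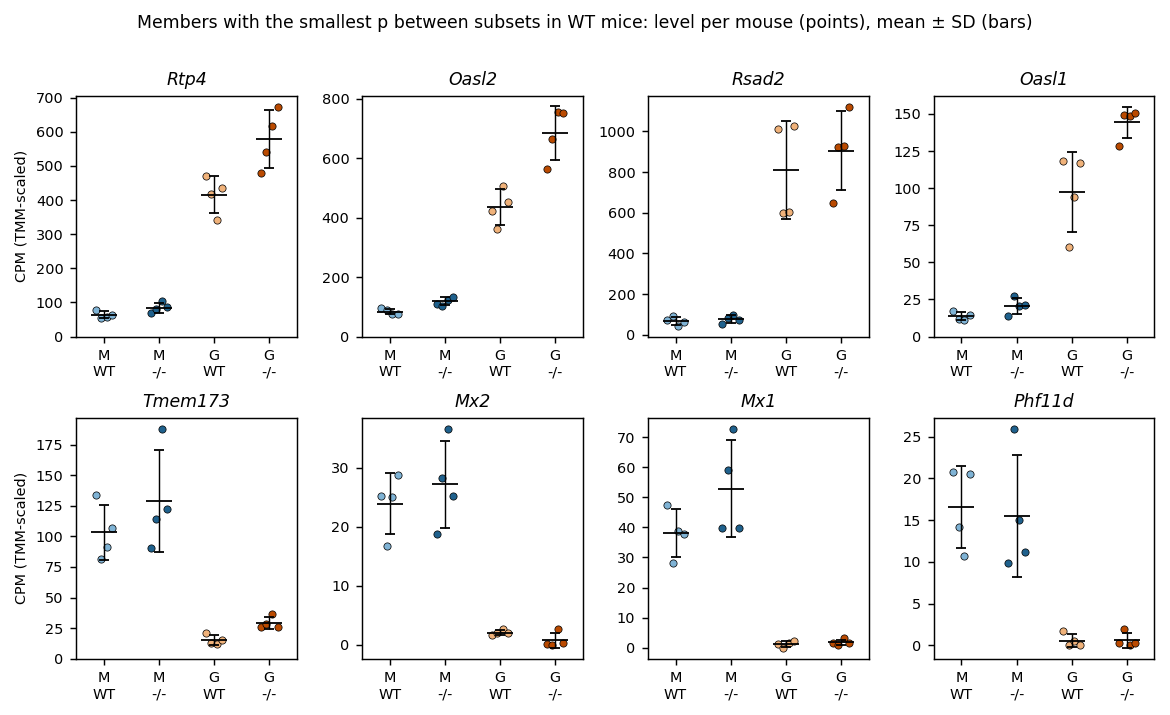
Levels (y axes, CPM after TMM scaling) of the 4 members with the smallest p in each direction between subsets in WT mice. M and G are the subsets, WT and -/- the genotype, points are mice (n = 4 per group) and bars the mean ± SD. G-MDSC points of Rtp4, Oasl2, Rsad2 and Oasl1 lie above all M-MDSC points, and those of Tmem173, Mx2, Mx1 and Phf11d below.

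All 3 IFIT genes were called higher in G-MDSCs of WT mice, and Ifit1 and Ifit3 also in Nlrp3-/- mice. Ifit1, which blocks translation of RNA without a 2′-O-methylated cap, averaged 12.2 ± 1.74 CPM (SD, n = 4) in M-MDSCs and 78.3 ± 37.3 CPM in G-MDSCs of WT mice. The log2 fold change was 2.69 ± 0.30 (SE, edgeR adjusted p = 1.25e-05), and 2.57 ± 0.20 (1.19e-07) in Nlrp3-/- mice. Ifit3 differed by 2.23 ± 0.27 (2.44e-05) and 2.28 ± 0.21 (5.60e-07). Ifit2 was higher by 0.87 ± 0.33 (0.0375) in WT mice alone, with overlapping groups, and was at 0.04 ± 0.36 in Nlrp3-/- mice.

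Oas2, Oas3, Oasl1 and Oasl2 were higher in G-MDSCs of both genotypes, by 1.09 to 2.84 on the log2 scale. For Oas3 the subsets overlapped in WT mice, where G-MDSC replicate 2 at 56.5 CPM lay within the M-MDSC range of 48.2 to 69.1 CPM. Oasl2 levels, listed above for each library, ranged from 75.4 to 134.8 CPM in the 8 M-MDSC libraries and from 361.8 to 753.8 CPM in the 8 G-MDSC libraries, so the subsets were far apart in both genotypes. The log2 fold change of Oasl2 was 2.37 ± 0.16 (edgeR adjusted p = 2.86e-07) in WT and 2.41 ± 0.16 (2.81e-08) in Nlrp3-/- mice. Oasl1, which in mice limits translation of Irf7, was at 17.1, 11.8, 11.2 and 14.4 CPM in M-MDSCs and 118.2, 60.2, 93.8 and 117.1 CPM in G-MDSCs of WT mice. In Nlrp3-/- mice it was at 13.8, 27.1, 20.9 and 21.2 CPM against 128.4, 149.1, 148.8 and 150.8 CPM. No M-MDSC value reached a G-MDSC value, and the changes were 2.84 ± 0.25 (1.73e-06) and 2.69 ± 0.20 (6.26e-08). Oas1a went the other way in WT mice (-0.99 ± 0.38, 0.0407) and was not called in Nlrp3-/- mice.

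Rsad2, whose product viperin makes an antiviral nucleotide, had the largest log2 fold change of the members that were higher in G-MDSCs. M-MDSC libraries held 73.6, 91.3, 44.4 and 64.4 CPM in WT and 54.7, 81.9, 98.8 and 71.4 CPM in Nlrp3-/- mice. G-MDSC libraries held 1013, 596.3, 604.3 and 1027 CPM in WT and 647.1, 922.8, 925.8 and 1120 CPM in Nlrp3-/- mice. The lowest G-MDSC library was above the highest M-MDSC library in both genotypes, and the log2 fold change was 3.57 ± 0.28 (edgeR adjusted p = 7.69e-07), or 11.8-fold, in WT and 3.45 ± 0.21 (1.19e-08) in Nlrp3-/- mice. Its neighbor Cmpk2, a mitochondrial nucleotide kinase, was higher by 1.38 ± 0.22 and 1.16 ± 0.23.

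Rtp4, an interferon-induced member of a family that helps receptors reach the cell surface, was at 78.2, 55.8, 57.8 and 63.4 CPM in M-MDSCs and 470.4, 417.6, 340.4 and 434.3 CPM in G-MDSCs of WT mice. In Nlrp3-/- mice it was at 68.3, 81.6, 103.2 and 86.8 CPM against 480.8, 541.1, 616.8 and 674.0 CPM. The subsets did not overlap, with log2 fold changes of 2.71 ± 0.18 (edgeR adjusted p = 1.72e-07) and 2.65 ± 0.17 (1.86e-08). Isg20, an exonuclease, was higher by 2.18 ± 0.45 in WT mice, where G-MDSC replicate 2 at 19.6 CPM lay within the M-MDSC range of 14.1 to 25.5 CPM, and by 2.72 ± 0.23 in Nlrp3-/- mice. Trim30a was higher by 1.74 ± 0.18 and 1.43 ± 0.16. Isg15 was also higher in G-MDSCs, by 1.71 ± 0.36 (0.00147) and 2.18 ± 0.24 (3.24e-06), while no other gene of its group was called higher in both genotypes.

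Mx1, Mx2 and Phf11d were near the limit of detection in G-MDSCs, where 3 counts are 0.622 to 1.17 CPM across libraries. The Mx proteins are GTPases that trap viral particles, and many laboratory strains carry a defective Mx1 allele. Mx1 was at 47.6, 28.1, 38.9 and 37.7 CPM in M-MDSCs and 1.34, 0, 1.70 and 2.34 CPM in G-MDSCs of WT mice. In Nlrp3-/- mice it was at 39.8, 59.0, 72.7 and 40.0 CPM against 1.62, 0.988, 3.11 and 1.57 CPM. All G-MDSC libraries were far below all M-MDSC libraries, with log2 fold changes of -4.79 ± 0.44 (edgeR adjusted p = 2.52e-06) and -4.92 ± 0.35 (4.18e-08).

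Mx2 was at 25.3, 16.7, 25.0 and 28.8 CPM in M-MDSCs and 1.67, 2.03, 2.67 and 1.95 CPM in G-MDSCs of WT mice. In Nlrp3-/- mice it was at 18.9, 28.3, 36.6 and 25.2 CPM against 0.231, 0, 2.69 and 0.262 CPM. The groups were separate in both, with changes of -3.48 ± 0.30 (edgeR adjusted p = 1.49e-06) and -5.06 ± 0.62 (1.07e-05). Phf11d, a PHD finger gene, was at 20.8, 14.2, 10.7 and 20.6 CPM against 1.67, 0, 0.485 and 0 CPM in WT mice and at 9.89, 25.9, 15.0 and 11.2 CPM against 0.231, 1.98, 0 and 0.262 CPM in Nlrp3-/- mice. At least 1 G-MDSC library of each genotype had no Phf11d count, and the fitted changes of -4.82 ± 0.61 (3.70e-05) and -4.74 ± 0.70 (6.04e-05) depend on the prior count. Bst2 (tetherin, which holds budding virus at the membrane) was lower in G-MDSCs of both genotypes, with -2.53 ± 0.36 and -2.82 ± 0.43.

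Tmem173, with the levels given above, was at most 36.7 CPM in G-MDSC libraries and at least 81.4 CPM in M-MDSC libraries, and the log2 fold change was -2.73 ± 0.23 (edgeR adjusted p = 1.43e-06) in WT and -2.24 ± 0.22 (1.36e-06) in Nlrp3-/- mice. Of the other sensors, Ddx58 was higher in G-MDSCs of both genotypes (1.16 ± 0.15 and 1.00 ± 0.18) and Eif2ak2 lower (-0.82 ± 0.20 and -1.19 ± 0.25). The GTPases were split, with Gbp2, Gbp7 and Igtp higher, Gbp3 lower (-2.01 ± 0.29 and -1.60 ± 0.36) and Gbp5 and Irgm1 not called in either genotype. Slfn1 was higher by 2.62 ± 0.28 (7.95e-06) and 2.64 ± 0.17 (1.81e-08) and Slfn2 by 1.37 ± 0.18 and 1.27 ± 0.17, while Slfn5 was not called. Of the receptor chains, only Ifngr1 was called without the mouse block, as lower in G-MDSCs, with -0.60 ± 0.22 (0.0339) and -1.03 ± 0.16 (7.59e-05). With the block Ifngr2 was also called, as higher in G-MDSCs of Nlrp3-/- mice (0.59, 0.00801).

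With library size alone in place of TMM, the median log2 fold change of all genes between subsets moved from -0.05 to -0.79 in WT and from -0.12 to -0.83 in Nlrp3-/- mice. No called member changed sign under that scaling, while 12 and 10 members that were not called did. Without M-MDSC WT replicate 2, the library with the most neutrophil marker counts, 18 members were called higher and 12 lower in WT mice.

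The members also varied between mice of 1 genotype. The mean log2 CPM over the 50 members was 5.61 ± 0.17 (SD, n = 4) in WT and 5.62 ± 0.08 in M-MDSCs of Nlrp3-/- mice, and 5.81 ± 0.20 and 5.82 ± 0.09 in G-MDSCs. Mice WT2 and WT6 had the highest values of both subsets, at 5.78 and 5.74 in M-MDSCs and 5.96 and 5.96 in G-MDSCs. WT3 had the lowest, at 5.45 and 5.55, and WT4 had 5.47 and 5.76. Mouse WT3 gave the lowest of the 4 WT libraries for 26 of 50 members in M-MDSCs, against 25.2% of all 10696 genes, and for 24 in G-MDSCs, against 28.4%. Its M-MDSC library is the one with the neutrophil markers, and the part of these in its low values was not tested. The Nlrp3-/- mice lay within 5.53 to 5.69 in M-MDSCs and 5.74 to 5.94 in G-MDSCs, and by this mean no Nlrp3-/- mouse was lowest in both subsets. Counted by member, mouse KO1 gave the lowest of the 4 Nlrp3-/- libraries for 21 of 50 members in M-MDSCs, against 34.5% of all genes, and for 24 in G-MDSCs, against 29.1%.

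**Figure D5:**
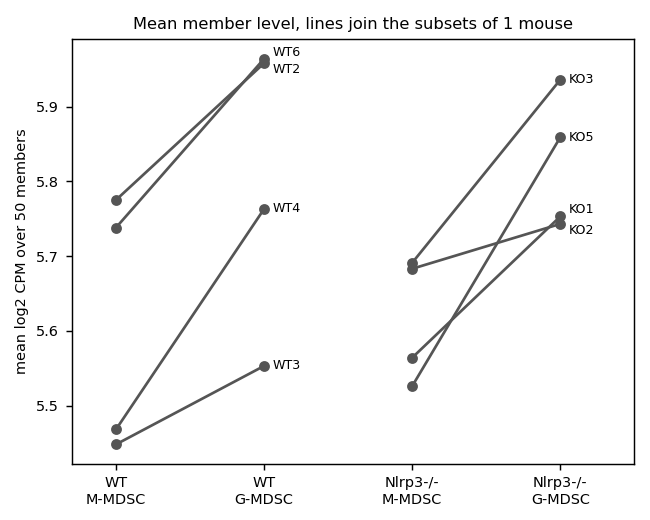
Mean log2 CPM over the 50 members (y axis) for the M-MDSC and G-MDSC library of each mouse (points, joined by a line for 1 mouse), WT mice on the left and Nlrp3-/- mice on the right. After TMM scaling the G-MDSC value is above the M-MDSC value in all 8 mice, and mouse WT3 is lowest in both WT subsets. This mean was not computed with library size only, where the members' median log2 fold change between subsets was negative in both genotypes. Over all genes that median was then -0.79 in WT and -0.83 in Nlrp3-/- mice.

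The ligands of the pathway had almost no counts. Of 21 interferon genes listed, 19 had 0 counts in all 16 libraries, which by counting error alone allows at most 0.349 to 1.17 CPM per library. Sequence that these interferon genes share with each other was not examined. Ifnb1 reached 1 count in a library and Ifng 24 counts, or 4.40 CPM. Of 20 signal transducers and factors, 3 were called higher (15.0%) and 0 lower in Nlrp3-/- M-MDSCs, against 3.51% and 7.10% of all genes tested, and 2 higher and 2 lower (10.0% each) in G-MDSCs, against 4.70% and 11.7%. Irf2, a factor that antagonizes IRF1, was among the lower ones in G-MDSCs, with a log2 fold change of -0.69 ± 0.15 (edgeR adjusted p = 0.00585), and was named after its values were seen. Irf7, the factor that amplifies type I interferon, rose by 0.70 ± 0.17 on the log2 scale (edgeR adjusted p = 0.0231) and 0.80 ± 0.17 (0.00525), Irf3 by 0.81 ± 0.19 (0.0204) and 0.80 ± 0.21 (0.0157), and Irf1 by 0.70 ± 0.18 (0.0279) in M-MDSCs.

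Of 16 inhibitors of interferon signaling, 15 were tested in each subset, and 1 was called higher (6.67%) and 2 lower (13.3%) in M-MDSCs, and 1 higher (6.67%) and 3 lower (20.0%) in G-MDSCs, read against the shares of all genes just given. Ptpn11, the phosphatase SHP2, fell in both subsets, with log2 fold changes of -0.88 ± 0.18 (edgeR adjusted p = 0.0103) and -0.93 ± 0.21 (0.00788), and Irf2bp2, a partner of IRF2, fell in both, with log2 fold changes of -0.997 ± 0.25 (0.0258) and -1.32 ± 0.24 (0.00214). Pias3 rose by 0.64 ± 0.19 (0.0467) and 0.74 ± 0.20 (0.0182). Of 83 further interferon-stimulated genes measured, 3 were called higher and 3 lower of 74 tested in M-MDSCs (4.05% each, against 3.51% and 7.10% of all genes), and 6 higher and 7 lower of 68 in G-MDSCs (8.82% and 10.3%, against 4.70% and 11.7%). In M-MDSCs Ifi47, an immunity-related GTPase, rose by 0.88 ± 0.18 (0.0106), and Pnpt1 and Slfn9 fell, with -1.39 ± 0.38 (0.0361) and -1.29 ± 0.37 (0.0439). Lgals3bp rose by 0.62 ± 0.18 (0.0478) and 1.11 ± 0.28 (0.0139). In G-MDSCs Ddx60, Gbp9 and Azi2 fell, with -1.15 ± 0.16 (0.000383), -1.40 ± 0.26 (0.00268) and -1.0 ± 0.20 (0.00338).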

How the data were processed

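RNA of 16 sorted samples (4 per group, both subsets of 8 mice) was made into QuantSeq 3′ libraries with 15 or 17 amplification cycles, which the labels do not assign to libraries. Per the labels, reads were aligned to mm10 with HISAT2 2.1.0 and counted with HTSeq (by strand, per the study's methods), with edgeR 3.14.0 also named. The authors deposited raw counts of 24421 gene symbols per sample, 2295967 to 6079866 in total, and 3 counts correspond to 0.349 to 1.17 CPM after TMM scaling. Intervals of this kind cover counting error only.

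The counts were filtered (filterByExpr), scaled by TMM and tested with the quasi-likelihood test of edgeR 4.0.16 in R 4.3.3, in each subset between genotypes, in each genotype between subsets, and for the difference of the genotype effect over all 16 samples. A call needed a Benjamini-Hochberg FDR under 0.05 over all genes tested and a fold change above 1.5 (FDR alone for the difference). Displayed CPM used TMM over 16 samples, and log2 CPM a prior count of 2. Scripts were tested on simulated data. Of 24 same-group pairs of samples, none held identical values or agreed within counting noise.

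The members and lists were chosen with earlier results of these data known. Values in every sample are given for members called between genotypes, for the member of highest mean CPM in each role group, and for the 4 of smallest p in each direction between subsets in WT mice. Genes outside the list are named if they were among the 5 of smallest p in each direction of the pathway lists, and some of these are not reported here.

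The subsets of 1 mouse carry 1 mouse number in the labels, which pairs the samples (correlations of deviations 0.097 to 0.397 in WT and 0.008 to 0.382 in Nlrp3-/- mice). For Nlrp3-/- replicate 2 another mouse correlated better, at 0.066 against 0.008. The own mouse led narrowly for WT replicates 2 and 4 (0.097 against 0.089, 0.129 against 0.119) and Nlrp3-/- replicate 4 (0.077 against 0.073). The pairing therefore rests on the labels. Alternatives were library size only, DESeq2 size factors, DESeq2 1.42.0, no filter, GC content and length offsets, replicate blocks, a model of all 16 samples, FDR only and leaving out each sample. Promoters came from RefSeq, and 24055 of 24421 symbols matched the annotation.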

Additional observations from a re-analysis of the deposited data

Results flagged for a closer look

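In 4 of 92 member and group combinations, 1 of 4 libraries lay apart from the others by a gap above the 95% critical value of Dixon for the share of the whole range, and chance gives about 1 in 20 such cases. Gbp7 was lowest in M-MDSC Nlrp3-/- replicate 4, at 27.4 CPM against 37.5 to 39.6 CPM (gap 0.857 of the range). Samhd1 was lowest in G-MDSC WT replicate 2, at 737.8 CPM against 1036 to 1077 CPM (0.898). Slfn1 was highest in M-MDSC Nlrp3-/- replicate 3, at 361.3 CPM against 239.4 to 250.4 CPM (0.891). Oasl1 was lowest in G-MDSC Nlrp3-/- replicate 1, at 128.4 CPM against 148.8 to 150.8 CPM (0.915).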

How the results depend on the processing

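Of the calls between genotypes, those of Ifit3, Xaf1 and Sp100 in M-MDSCs and of Ifit3, Parp9, Trim30a and Sp100 in G-MDSCs held in all 15 alternatives, and no called member changed sign. Members called higher and lower in M-MDSCs (1 and 5) became 3 and 2 with library size only, 2 and 2 with GC content and length offsets, and 3 higher with FDR only. In G-MDSCs (2 and 8) they became 5 higher with library size only, 1 and 5 with GC content and length offsets, 6 higher in the model of all 16 samples and 4 higher with FDR only. Between subsets, library size only gave 23 lower in WT mice (13), and 11 higher and 23 lower in Nlrp3-/- mice (18 and 10), and moved the members' median to -0.55 and -0.68. With library size only the all-gene median moved from 0.07 to 0.17 in M-MDSCs and from 0.03 to 0.16 in G-MDSCs, and the share of lower calls among all genes fell to 45.4% (from 66.9%) and 51.9% (from 71.4%). It was 56.6% in G-MDSCs in the model of all 16 samples, and 81.3% (50.8%) and 81.5% (53.6%) between subsets with library size only. Parp14, not called in M-MDSCs, turned from -0.27 to 0.0291 on the log2 scale with GC content and length offsets. The cause of these shifts was not tested. Leaving out 1 sample gave 1 to 5 higher and 2 to 7 lower in M-MDSCs, 1 to 5 and 4 to 8 in G-MDSCs, 18 to 20 and 10 to 13 between subsets in WT mice, 18 to 19 and 9 to 11 in Nlrp3-/- mice, and 0 for the difference. In M-MDSCs 5 were higher without WT replicate 1 and 2 without Nlrp3-/- replicate 1, and 2 or 3 were lower without any of the samples except Nlrp3-/- replicate 1. In G-MDSCs 1 was higher without WT replicate 2 or Nlrp3-/- replicate 2 or 3, 5 were higher without Nlrp3-/- replicate 1, and 4 were lower without WT replicate 4. WT and Nlrp3-/- mice share only replicate numbers (correlations -0.452 to 0.018, own number best in 0 pairs), and the replicate block left 2 lower in M-MDSCs and 1 higher and 5 lower in G-MDSCs. The mouse block between subsets changed no call other than those given in the results. Low counts in G-MDSCs kept Oas1g, Mx1, Mx2, Ifi44 and Phf11d out of the test between genotypes there.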
